A study of Mus musculus with 4 samples.

Results

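The genes described here encode the chaperones and folding enzymes of the endoplasmic reticulum (ER), cytosol and mitochondria, together with sensors, effectors and degradation factors of the unfolded protein response (UPR). They were taken by symbol from the deposited expression table, in which all 36 were found among 26334 rows. They comprised 14 ER chaperones and folding enzymes, 3 UPR sensors or factors, 6 genes of ER-associated degradation, 10 cytosolic genes including the regulator Hsf1, and 3 mitochondrial chaperones. Bulk RNA sequencing of polyadenylated RNA had been done on mouse CD4+ T cells, isolated from spleen as naive cells and kept in Th1 (T helper 1) polarising culture until day 5. Interleukin-16 (IL-16) was present in the cultures of 2 libraries and phosphate-buffered saline (PBS) in those of the other 2, and the comparison asks how this cytokine alters gene expression in Th1 cells. No genotype, strain or dose was given in the labels, and separate mice or cultures are not named for replicates, so p-values reflect variation among 4 libraries that could be purely technical.

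Chaperones bind unfolded or partly folded proteins and keep them from aggregating. When unfolded proteins build up in the ER, the membrane sensors IRE1, PERK and ATF6 start the UPR, in which spliced XBP1, cleaved ATF6 and ATF4 raise transcription of ER chaperones and of the machinery that exports misfolded proteins for degradation. A parallel response in the cytosol is driven by the heat shock factor HSF1, and mitochondria carry their own chaperonin. Activated T cells enlarge their ER when they begin to divide and secrete cytokines, and XBP1 and its target genes are active in differentiating lymphocytes.

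The source and cell type labels name peritoneal macrophages, whereas the sample titles and the study's design text name Th1 cells. Of the 12 T cell markers all were tested, and their median level with IL-16 was 173 and 155 FPKM, against 147 and 156 FPKM with PBS. FPKM is a fragment count divided by transcript length and scaled to library size, a level that can be compared between genes. The 12 macrophage markers summed to 5.23 and 6.32 FPKM in the IL-16 libraries, against 4.92 and 5.46 FPKM in the PBS libraries. Most of each sum was Cd68, which was higher with IL-16, at 3.60 and 4.88 FPKM, against 2.90 and 3.36 FPKM with PBS. The defining macrophage receptor gene Csf1r was listed at 0.0255 and 0 FPKM with IL-16 and at 0.135 and 0.0884 FPKM with PBS. The 10 B and plasma cell markers summed to 28.9 and 29.6 FPKM with IL-16, against 27.8 and 27.8 FPKM with PBS. Most of this was Prdm1, which effector T cells also express, at 26.1 and 25.4 FPKM with IL-16 and 22.2 and 21.9 FPKM with PBS. Of the other 9 markers, the highest value in any library was that of Cd79a, 0.937 and 1.23 FPKM with IL-16 and 1.46 and 2.13 FPKM with PBS, and the plasma cell gene Jchain had 0 and 0.167 FPKM with IL-16 and 0.0274 and 0.144 FPKM with PBS. The 6 CD8 T and NK cell markers summed to 34.7 and 32.7 FPKM with IL-16, against 38.0 and 32.0 FPKM with PBS. Klrd1 was the highest of them, at 14.7 and 13.5 FPKM with IL-16 and 17.7 and 14.1 FPKM with PBS. Cd8b1 had 7.86 and 6.37 FPKM with IL-16 and 6.75 and 6.25 FPKM with PBS. The part of macrophages and of B, plasma, CD8 T and NK cells in the results below was not tested. Ifng, the signature Th1 cytokine gene, was 119.8 and 123 FPKM with IL-16, against 58.1 and 53.0 FPKM with PBS (log2 difference 1.12, SE 0.0772, adjusted p = 0.0329 in limma). Tbx21, which encodes the Th1 master regulator T-bet, had 91.3 and 102 FPKM with IL-16, against 46.1 and 47.0 FPKM with PBS (log2 difference 1.04, adjusted p = 0.0350). Neither gene kept its call when PBS replicate 1 or PBS replicate 2 was left out, with log2 differences of 1.18 and 1.05 for Ifng and 1.02 and 1.05 for Tbx21. Of the 6 Th1 markers 3 passed in the main fit, all higher (Ifng, Tbx21 and Hlx), against 0.219% of all tested rows. Il12rb2 was higher without passing (log2 difference 0.34), whereas Cxcr3 (-0.01) and Stat4 (-0.07) overlapped between groups. Cd4 had 269 and 302 FPKM with IL-16 and 243 and 262 FPKM with PBS (adjusted p = 0.307). The number of reads behind these values is unknown, and with 2 libraries a group an exact permutation test of a single value cannot go below p = 0.333 (two-sided).

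Where ER chaperone genes share a promoter element it is usually the ER stress response element (ERSE), which ATF6 binds together with the factor NF-Y. Windows of 300 bases, from 250 before to 50 after the transcription start, were matched in RefSeq (GRCm38.p6) for 27 of the 36 genes. The letters CCAAT and CCACG with 9 bases of any kind between them, read on both strands, were present in 8 of these 27 genes (29.6%), against 37 of all 27025 genes with a window (0.137%). The element was defined on promoters of such genes, so its presence is a property of the list and no independent finding. The sites are shown 5′ to 3′ on the strand of the gene with 10 flanking bases on either side, because genes that share these letters lay on both sides of the PBS level, and capitals mark the fixed letters of the element (read as CGTGG and ATTGG where it lies on the opposite strand).
Hspa5 (chr2:34772015-34772053, plus strand): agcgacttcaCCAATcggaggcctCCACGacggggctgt
Hsp90b1, farther site (chr10:86705628-86705666, minus strand): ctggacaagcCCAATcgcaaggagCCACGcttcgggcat
Hsp90b1, nearer site (chr10:86705523-86705561, minus strand): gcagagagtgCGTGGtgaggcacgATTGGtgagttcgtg
Calr (chr8:84847065-84847103, minus strand): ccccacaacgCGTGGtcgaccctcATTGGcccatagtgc
Canx (chr11:50325790-50325828, minus strand): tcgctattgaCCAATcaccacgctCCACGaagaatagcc
Pdia6 (chr12:17266481-17266519, plus strand): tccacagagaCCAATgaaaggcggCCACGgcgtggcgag
Dnajc3 (chr14:118937817-118937855, plus strand): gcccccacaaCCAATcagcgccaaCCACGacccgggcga
Creld2 (chr15:88819510-88819548, plus strand): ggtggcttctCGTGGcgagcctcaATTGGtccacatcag
Syvn1 (chr19:6046522-6046560, plus strand): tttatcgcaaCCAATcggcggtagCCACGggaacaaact
The site in Hspa5 spans positions -65 to -47 relative to the transcription start. Of the 8 genes with the element, 4 had a log2 difference above 0 and 4 below 0, with values between -0.19 (Dnajc3) and 0.27 (Syvn1). The shorter variant ERSE-II, searched as ATTGG and CCACG with 1 base of any kind between them on either strand, was found in 2 of the 27 genes (7.41%), against 12 of 27025 genes (0.0444%).
Dnajb11 (chr16:22857842-22857872, plus strand): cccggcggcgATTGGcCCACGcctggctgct
Herpud1 (chr8:94386367-94386397, plus strand): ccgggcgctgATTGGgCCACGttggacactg
Both genes had a log2 difference above 0, 0.13 for Dnajb11 and 0.22 for Herpud1. The XBP1-binding letters TGACGTGG were found in 0 of the 27 genes within this window, against 193 of 27025 genes (0.714%), which says only that these letters are not in these windows.

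In most of these genes, RNA in the IL-16 libraries was within a small fold of the PBS level, with wider differences in a few, among them the mitochondrial Hspd1 and Hspe1. In limma, 0 of the 34 tested genes passed an adjusted p of 0.05, against 0.219% of all 11882 tested rows (26 rows; 0.16% higher and 0.0589% lower), and limma without a mean-variance trend also called 0. At an unadjusted p under 0.05 there were 7 genes, 3 higher (Pdia3, Ern1 and Hsf1) and 4 lower (Edem1, Dnaja1, Hspd1 and Hspe1) with IL-16. That share, 20.6%, was near the 23.4% of all tested rows (9.59% higher and 13.9% lower). The median log2 difference was -0.014 over the 34 genes, with 17 above and 17 below 0 (42.2% of all tested rows were above 0), beside a median of -0.045 over all tested rows. The 95% interval lay within a 1.5-fold difference either way for 31 of the 34 genes (91.2%), against 69.5% of all tested rows and 76.5% of those with a mean of at least 5 FPKM, the range in which all 34 fell. The exceptions were Ern1, Derl1 and Hspe1, and the interval lay within a 2-fold difference for all 34, as for 94.1% of all tested rows. In bulk RNA, fewer cells of a type and less RNA per cell cannot be told apart.

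Small differences nevertheless set the IL-16 libraries apart from the PBS libraries in most genes. Both IL-16 values lay on one side of both PBS values in 28 of the 34 genes (82.4%), 14 higher and 14 lower, against 58.9% of all tested rows and 62.3% of those with a mean of at least 5 FPKM. These shares are not matched by level: in IL-16 replicate 1 the median was 34.5 FPKM over the 36 genes and 10.5 FPKM over all tested rows. IL-16 replicate 2 stood farther from the PBS mean than replicate 1, on the same side, in 27 genes, and the reverse held in 4, while this was so of 51.9% and 23.4% of all tested rows. Its median absolute log2 difference from the PBS mean was 0.211 over all tested rows, against 0.139 for replicate 1, and the part of this in the values below was not tested. When IL-16 replicate 1 was left out, limma called 8 of the 34 genes (23.5%), against 17.4% of all tested rows, with the lone IL-16 library assumed to vary like the PBS libraries. They were Pdia3, Calr, Herpud1 and Syvn1 (higher) and Edem1, Derl1, Hspd1 and Hspe1 (lower). Without IL-16 replicate 2, 0 of the 34 were called (0.446% of all tested rows), and without PBS replicate 1 or PBS replicate 2 also 0 (0.0757% of all tested rows each).

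**Figure D1:**
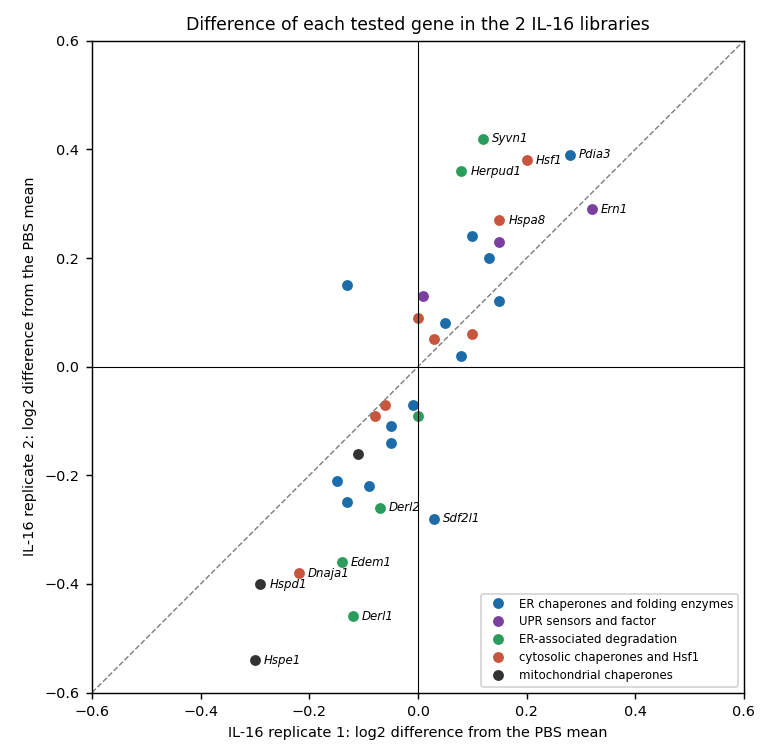
Each point is 1 of the 34 tested genes, with its log2 difference from the PBS mean on the log2(FPKM + 1) scale for the first IL-16 library (replicate 1, horizontal) and the second (replicate 2, vertical), coloured by class. The dashed line marks equal differences. Hspe1 (-0.30 and -0.54) and Derl1 (-0.12 and -0.46) lie below it, and Syvn1 (0.12 and 0.42) above it.

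The ER chaperones were abundant and led by the calcium-binding lectin calreticulin. Calr, its gene, had 261 and 287 FPKM in the IL-16 libraries, against 242 and 246 FPKM in the PBS libraries (log2 difference 0.17, SE 0.0831, adjusted p = 0.290 in limma). Hsp90b1, which encodes the HSP90 paralogue of the ER, had 213 and 225 FPKM with IL-16 and 195 and 195 FPKM with PBS (log2 difference 0.17, adjusted p = 0.239). In both genes the groups did not overlap, though neither passed. Pdia3, which encodes the disulfide isomerase that works with calreticulin and calnexin and in loading of MHC class I molecules, had 213 and 229.8 FPKM with IL-16, against 172 and 178 FPKM with PBS. Its mean was 221 ± 11.8 FPKM with IL-16 and 175 ± 4.12 FPKM with PBS (SD, n = 2 each), 1.26-fold higher with IL-16. It had the largest difference among the 14 ER genes, 0.34 on the log2 scale (SE 0.0776, 95% interval 0.14 to 0.53), without passing over all rows (adjusted p = 0.117).

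Hspa5 encodes BiP, the ER HSP70 that holds the UPR sensors inactive and whose RNA is a standard readout of the response. It had 159.8 and 150.4 FPKM with IL-16, against 166 and 165 FPKM with PBS (log2 difference -0.09, 95% interval -0.28 to 0.09, adjusted p = 0.464). Both IL-16 values were below both PBS values. Partners of BiP lay on either side. Dnajc3, which encodes a cochaperone of BiP that also inhibits PERK, had 19.0 and 17.4 FPKM with IL-16 and 21.4 and 20.4 FPKM with PBS (log2 difference -0.19, adjusted p = 0.244). Hyou1, encoding a nucleotide exchange factor of BiP, had 24.1 and 23.1 FPKM with IL-16 and 25.4 and 24.5 FPKM with PBS. By contrast Dnajb11, which encodes an ER J-domain protein that hands clients to BiP, had 31.0 and 30.3 FPKM with IL-16, against 28.8 and 27.0 FPKM with PBS (log2 difference 0.13, adjusted p = 0.331). Dnajb9, another J-domain protein gene and a target of spliced XBP1, had 6.31 and 7.90 FPKM with IL-16 around PBS values of 7.03 and 6.97 FPKM.

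Canx, the gene of the membrane-bound lectin calnexin, had 70.5 and 64.0 FPKM with IL-16, against 76.3 and 73.6 FPKM with PBS (log2 difference -0.16, adjusted p = 0.295). Calr and Canx, whose products share their substrates, thus stood on opposite sides of PBS. Their ratio within a library, which does not depend on how libraries are scaled, was 3.70 and 4.49 in the IL-16 libraries and 3.17 and 3.35 in the PBS libraries. The ratio of Hspa5 to Hsp90b1 was 0.749 and 0.670 with IL-16, against 0.853 and 0.846 with PBS. These pairs were chosen after their values were seen, and the groups do not overlap in either. Of the remaining disulfide isomerase genes, Pdia4 had 38.4 and 39.2 FPKM with IL-16 and 36.7 and 37.6 FPKM with PBS, and Pdia6 had 53.6 and 51.5 FPKM with IL-16 and 50.4 and 50.8 FPKM with PBS (adjusted p = 0.606 and 0.655). Creld2, an ER stress-inducible secreted factor gene, had 11.0 and 10.5 FPKM with IL-16 and 12.8 and 11.9 FPKM with PBS (log2 difference -0.18, adjusted p = 0.275). Manf, which encodes a secreted ER stress factor, was 83.8 and 80.5 FPKM with IL-16 among PBS values of 82.5 and 86.6 FPKM, and Sdf2l1 likewise overlapped. Over the 14 genes the median log2 difference was -0.014 (0.031 with median-of-ratios scaling and 0.013 after rescaling to TPM), with 6 genes higher and 5 lower without overlap, beside 24.1% and 34.8% of all tested rows.

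**Figure D2:**
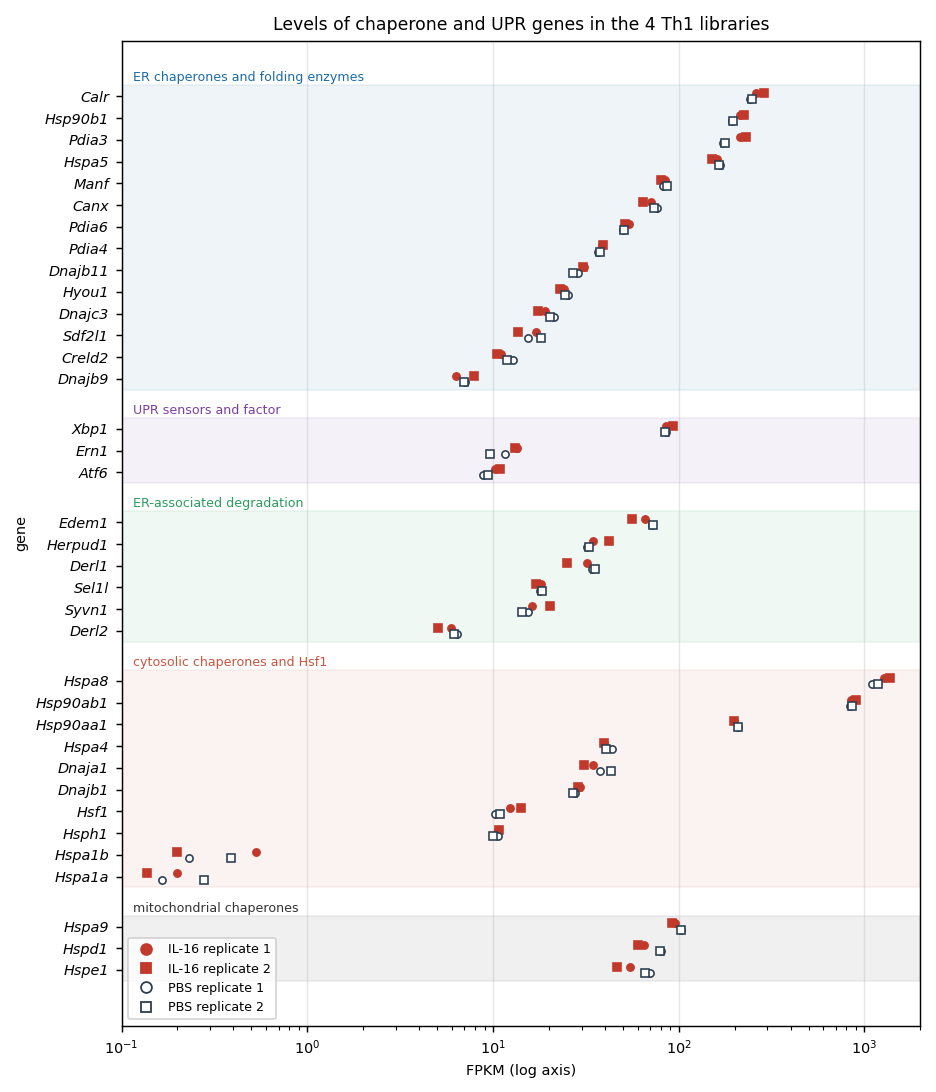
FPKM (log axis) of all 36 genes in every library, ordered by level within each class, with IL-16 libraries as filled red symbols above PBS libraries as open symbols. Levels span from Hspa8, at 1101 to 1376 FPKM, to Hspa1a and Hspa1b, under 1 FPKM in every library.

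The 3 UPR sensor and factor genes of this class, Ern1, Atf6 and Xbp1, were all higher with IL-16, unlike Eif2ak3, the gene of the sensor PERK. Ern1, which encodes the sensor IRE1α, had 13.4 and 13.2 FPKM in the IL-16 libraries, against 11.6 and 9.61 FPKM in the PBS libraries (log2 difference 0.31, SE 0.110, 95% interval 0.03 to 0.59, unadjusted p = 0.0359, adjusted p = 0.189 in limma). Its PBS libraries differed from each other more than its IL-16 libraries did. Atf6, the gene of the sensor that is cleaved to a transcription factor, had 10.3 and 10.9 FPKM with IL-16, against 8.86 and 9.45 FPKM with PBS (log2 difference 0.19, adjusted p = 0.274). Xbp1, whose mRNA is spliced by IRE1α, had 85.9 and 93.0 FPKM with IL-16 and 85.5 and 84.8 FPKM with PBS (log2 difference 0.07, 95% interval -0.12 to 0.26, adjusted p = 0.594). The table has 1 value for Xbp1 per library, so spliced and unspliced mRNA are not told apart. The class median was 0.188, and 24.1% of all tested rows had both IL-16 values above both PBS values. Eif2ak3 was listed apart, with the PERK branch, and is not in this median. It had 17.2 and 17.5 FPKM with IL-16, against 18.2 and 18.3 FPKM with PBS (log2 difference -0.07, adjusted p = 0.6 in limma).

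Genes of ER-associated degradation, which moves misfolded proteins to the proteasome, lay on both sides of PBS, and of the 6 only Edem1 had an unadjusted p under 0.05. Syvn1, which encodes the ubiquitin ligase HRD1, had 16.2 and 20.2 FPKM with IL-16, against 15.5 and 14.2 FPKM with PBS (log2 difference 0.27, adjusted p = 0.263 in limma). Herpud1, encoding a stress-inducible partner of that ligase, had 34.4 and 41.9 FPKM with IL-16, against 32.1 and 32.9 FPKM with PBS (log2 difference 0.22, adjusted p = 0.286). In both genes IL-16 replicate 2 carried most of the difference. Sel1l, the adaptor that stabilises HRD1, had 18.1 and 17.0 FPKM with IL-16 and 18.0 and 18.3 FPKM with PBS, where the groups overlapped. The ratio of both genes, Syvn1 over Sel1l, was 0.892 and 1.19 with IL-16 and 0.861 and 0.780 with PBS, a pair also chosen after its values were seen.

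Edem1, which encodes a mannosidase-like protein that marks glycoproteins for degradation, had 65.7 and 56.0 FPKM with IL-16, against 71.8 and 72.9 FPKM with PBS (log2 difference -0.25, 95% interval -0.49 to -0.01, unadjusted p = 0.0444, adjusted p = 0.204 in limma). Derl1, the gene of a derlin of the retrotranslocation complex, had 31.9 and 25.0 FPKM with IL-16, against 34.3 and 35.3 FPKM with PBS (log2 difference -0.29, adjusted p = 0.236). Derl2, its paralogue, had 5.90 and 5.06 FPKM with IL-16 and 6.36 and 6.15 FPKM with PBS. The table holds a copy row of Derl2 between which reads may be split, and the sum of both rows was 10.6 and 8.41 FPKM with IL-16, against 11.2 and 12.8 FPKM with PBS. In these genes too the lower value was that of IL-16 replicate 2. The class median was -0.105, and leaving out IL-16 replicate 1 gave -0.174, while leaving out replicate 2 of that group gave -0.035. Without overlap there were 2 genes higher and 3 lower, beside 24.1% and 34.8% of all tested rows.

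**Figure D3:**
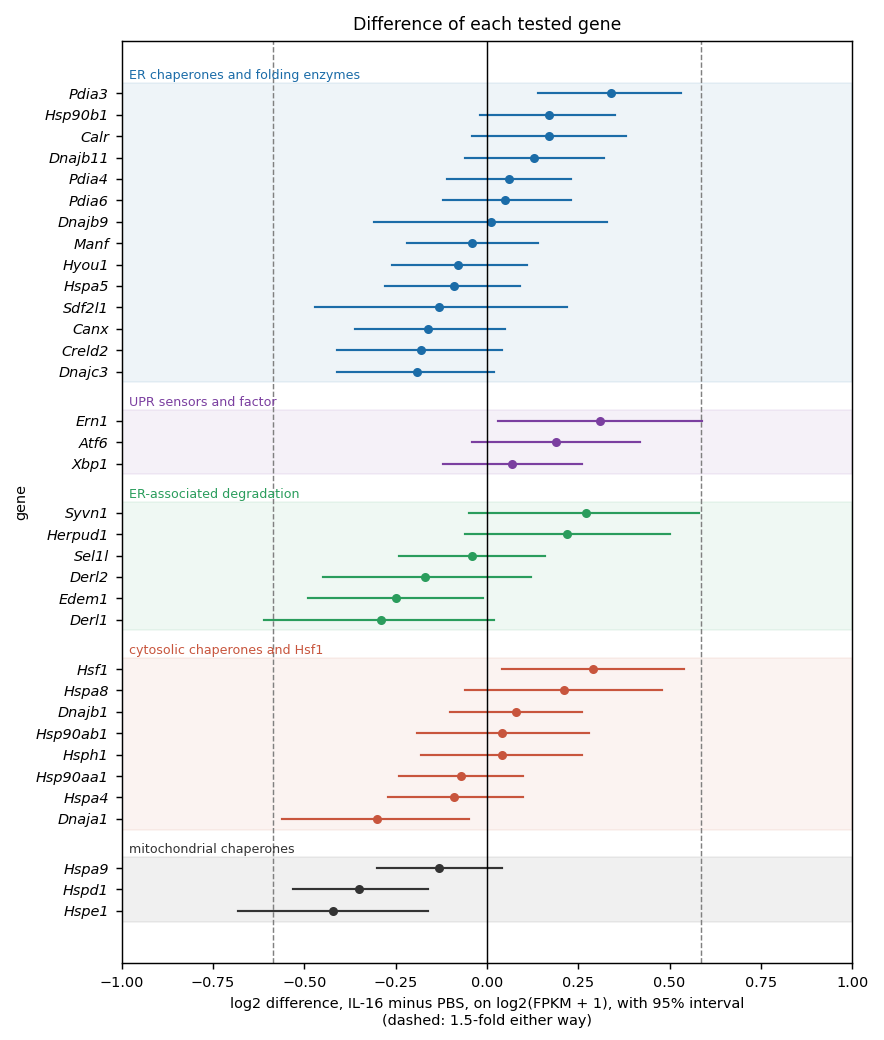
Log2 difference, IL-16 minus PBS, on the log2(FPKM + 1) scale for the 34 tested genes, with limma's 95% interval as a line, grouped by class. Dashed lines mark 1.5-fold either way, and the intervals of 31 genes lie between them.

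The cytosolic Hspa8 and Hsp90ab1 had the highest levels of the 36 genes, while the other cytosolic genes ranged down to the lowest. Hspa8, which encodes the constitutive HSP70 of the cytosol, had 1267 and 1376 FPKM in the IL-16 libraries, against 1101 and 1181 FPKM in the PBS libraries, and ranked 23 among all rows by mean level. Its log2 difference was 0.21 (SE 0.107, 95% interval -0.06 to 0.48, adjusted p = 0.293 in limma). Hsp90ab1, the constitutive HSP90 gene, had 851 and 900.3 FPKM with IL-16 and 839.6 and 858 FPKM with PBS, where the groups overlapped. Hsp90aa1, the more stress-inducible HSP90 gene, had 199 and 198 FPKM with IL-16, against 207 and 209 FPKM with PBS (log2 difference -0.07, adjusted p = 0.564). Both HSP90 genes and Hspa8 have closely similar relatives, so their levels are uncertain to the extent that reads were split between them. The sum over the 10 cytosolic genes was 2444 and 2598 FPKM with IL-16 and 2279 and 2380 FPKM with PBS, of which Hspa8 and Hsp90ab1 made up the bulk.

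The main heat-inducible genes had low values. Hspa1a and Hspa1b, the stress-induced HSP70 genes, did not reach the minimum of 1 FPKM for the test. Hspa1a had 0.1999 and 0.137 FPKM with IL-16 and 0.164 and 0.276 FPKM with PBS, and Hspa1b had 0.531 and 0.2 FPKM with IL-16 and 0.231 and 0.390 FPKM with PBS. These genes are nearly identical in sequence and have 6 copy rows in the table, and all 8 rows together summed to 1.57 and 0.743 FPKM with IL-16, against 0.917 and 1.12 FPKM with PBS. The groups overlap in each of these measures. How reads that match more than 1 copy were counted was not stated, so the RNA of these genes may be understated. Hsf1, the regulator of such genes, had 12.3 and 14.1 FPKM with IL-16, against 10.3 and 10.9 FPKM with PBS, 1.25-fold higher with IL-16 (log2 difference 0.29, 95% interval 0.04 to 0.54, unadjusted p = 0.0310, adjusted p = 0.180 in limma).

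The remaining cytosolic genes differed little, apart from Dnaja1. Dnaja1, which encodes a J-domain partner of HSP70, had 34.6 and 30.8 FPKM with IL-16, against 37.9 and 43.3 FPKM with PBS (log2 difference -0.30, SE 0.101, 95% interval -0.56 to -0.05, unadjusted p = 0.0290, adjusted p = 0.177 in limma). Dnajb1, a stress-inducible J-domain partner, had 29.3 and 28.6 FPKM with IL-16 and 27.8 and 26.8 FPKM with PBS. Hsph1, the heat-inducible HSP110 gene, had 10.6 and 10.7 FPKM with IL-16 and 10.7 and 10.04 FPKM with PBS, where the groups overlapped. Hspa4, another HSP110 gene, had 39.7 and 39.4 FPKM with IL-16 and 43.5 and 40.7 FPKM with PBS (log2 difference -0.09, adjusted p = 0.496). The ratio of Hspa8 to Dnaja1, likewise chosen after the values were seen, was 36.6 and 44.6 with IL-16, against 29.1 and 27.3 with PBS. The class median was 0.042, and it was 0.017 without IL-16 replicate 2, 0.028 without PBS replicate 2, 0.088 with median-of-ratios scaling and 0.070 after rescaling to TPM. Without overlap there were 3 genes higher and 3 lower, beside 24.1% and 34.8% of all tested rows.

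All 3 mitochondrial chaperone genes had lower values in both IL-16 libraries than in both PBS libraries, by more in Hspd1 and Hspe1 than in Hspa9. Hspd1, which encodes the chaperonin HSP60, had 65.1 and 60.6 FPKM in the IL-16 libraries, against 80.4 and 79.7 FPKM in the PBS libraries. Its mean was 62.8 ± 3.16 FPKM with IL-16 and 80.0 ± 0.469 FPKM with PBS (SD, n = 2 each), a log2 difference of -0.35 (SE 0.0719, 95% interval -0.53 to -0.16) that did not pass over all rows (unadjusted p = 0.00424, adjusted p = 0.106 in limma). Hspe1, which encodes HSP10, the lid of the HSP60 chamber, had 54.9 and 46.3 FPKM with IL-16, against 70.0 and 65.9 FPKM with PBS (log2 difference -0.42, SE 0.102, 95% interval -0.68 to -0.16, unadjusted p = 0.00796, adjusted p = 0.120). Hspa9, encoding the mitochondrial HSP70, had 95.4 and 91.8 FPKM with IL-16, against 103 and 102 FPKM with PBS (log2 difference -0.13, adjusted p = 0.291). No value of the IL-16 libraries reached the PBS values in any of these genes, which held for 34.8% of all tested rows in the lower direction. The class median was -0.345, with -0.295 for IL-16 replicate 1 alone and -0.396 for replicate 2 alone.

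Hspd1 and Hspe1 lie head to head on opposite strands, and in RefSeq (GRCm38.p6) the Hspe1 window, chr1:55087898-55088197 on the plus strand, shares 285 bases with a window of Hspd1 on the minus strand. It is shown because Hspd1 and Hspe1, both lower with IL-16, have starts in it that point in opposite directions. Another Hspd1 window, chr1:55088194-55088493, shares only 4 bases with it, so not every start of Hspd1 lies here. Heat shock elements, searched as GAA, TTC and GAA with 2 bases of any kind between each on both strands, are in capitals, where 2 overlapping matches merge into one run.
Hspe1: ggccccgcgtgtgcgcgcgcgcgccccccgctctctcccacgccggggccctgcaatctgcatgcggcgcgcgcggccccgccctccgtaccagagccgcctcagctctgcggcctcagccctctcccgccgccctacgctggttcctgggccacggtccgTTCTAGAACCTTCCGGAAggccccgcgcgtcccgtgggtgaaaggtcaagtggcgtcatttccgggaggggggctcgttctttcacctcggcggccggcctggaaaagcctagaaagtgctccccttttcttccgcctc
Besides Hspd1 and Hspe1, Hsph1 held such an element, which makes 3 of the 27 genes with a window (11.1%), against 179 of 27025 genes (0.662%). The matches of Hspd1 and Hspe1 are the same bases read from either strand, so 1 element counts for both, and heat shock elements too were defined on promoters of such genes. Of these, Hsph1 had a log2 difference of 0.04 and the pair had -0.35 and -0.42. The ratio of Hspd1 to Hspe1 was 1.19 and 1.31 with IL-16 and 1.15 and 1.21 with PBS, with overlapping groups. Set against the cytosol, the ratio of Hspa8 to Hspd1 was 19.5 and 22.7 with IL-16, against 13.7 and 14.8 with PBS, and was also chosen after the values were seen.

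By level, Hspa8 and Hsp90ab1 stood above all others in every library, followed by Calr. Hsp90b1, Hsp90aa1 and Pdia3 came next and could not be ordered, since their values overlapped across libraries. Hspa5, at 160.3 FPKM over the 4 libraries, followed below all of their values, and Hspa9, Xbp1 and Manf came after it with ranges that overlapped between neighbours. Derl2, at 5.87 FPKM, was the lowest gene tested. The 36 genes together summed to 4143 and 4309 FPKM with IL-16, against 3947 and 4053 FPKM with PBS, which was 1.07% and 1.15% of the library totals with IL-16 and 1.02% and 1.04% with PBS. Most of that difference came from Hspa8, with a mean of 1322 FPKM with IL-16 and 1141 FPKM with PBS (adjusted p = 0.293 in limma). Of the 34 tested genes, 17 had a log2 difference above 0 and 17 below 0.

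Beyond these genes, 135 of 140 listed genes of related folding and stress pathways were in the table, and 132 were tested. Again 0 passed over all rows in limma, with 12 higher and 24 lower at an unadjusted p under 0.05 (27.3%, against 23.4% of all tested rows). Their median log2 difference was -0.103. The PERK branch, which slows translation and induces ATF4, had 1 of 9 genes above 0 (42.2% of all tested rows) and a median of -0.151, which was -0.078 without IL-16 replicate 2. Atf4 itself had 127 and 119 FPKM with IL-16, against 136 and 138 FPKM with PBS (adjusted p = 0.271). The exception was Ppp1r15a, which encodes the phosphatase subunit that reverses the block in translation, with 22.0 and 24.4 FPKM with IL-16, against 17.8 and 18.6 FPKM with PBS (log2 difference 0.33, adjusted p = 0.132). Among 8 genes of the ER stress relay (median 0.019, and -0.009 to 0.102 over all alternatives), Rtcb, the ligase gene that joins the Xbp1 exons after IRE1α cuts them, had 117 and 115 FPKM with IL-16, against 88.3 and 85.6 FPKM with PBS (log2 difference 0.42, adjusted p = 0.0875). Wfs1, encoding an ER membrane protein, had 1.40 and 1.56 FPKM with IL-16 and 0.835 and 0.880 FPKM with PBS (adjusted p = 0.173 in limma). Its PBS values were under the minimum of 1 FPKM, so it entered the test only through the IL-16 libraries, and its difference is no independent finding.

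Other ER folding enzymes had a median of -0.044 over 18 tested genes, which was -0.161 without IL-16 replicate 1, 0.022 without IL-16 replicate 2, -0.105 without PBS replicate 1 and -0.002 without PBS replicate 2. Among them were Ppib, an ER cyclophilin gene, at 152 and 127 FPKM with IL-16, against 175 and 172 FPKM with PBS (adjusted p = 0.170 in limma), and Dnajc10, an ER disulfide reductase gene, at 23.0 and 19.7 FPKM with IL-16, against 25.2 and 24.7 FPKM with PBS (adjusted p = 0.247). Other ER degradation genes had a median of -0.039 over 18 genes, which was -0.013 without IL-16 replicate 1, 0.045 without IL-16 replicate 2 and -0.014 without PBS replicate 1. Here Os9, a lectin gene of the HRD1 complex, had 67.4 and 69.4 FPKM with IL-16, against 55.5 and 54.0 FPKM with PBS, and Aup1 had 116 and 142 FPKM with IL-16, against 86.0 and 91.9 FPKM with PBS (adjusted p = 0.107 and 0.109). The ER translocon and signal peptidase genes, which feed proteins into the ER, had a median of -0.132 (-0.201 on leaving out IL-16 replicate 1 and -0.062 on leaving out replicate 2 of that group), with 3 of 17 above 0, beside 42.2% of all tested rows. Sec61g, a translocon subunit gene, had 15.4 and 9.65 FPKM with IL-16, against 26.6 and 24.7 FPKM with PBS (log2 difference -1.01, adjusted p = 0.105). Sec11c, a signal peptidase subunit gene, had 35.5 and 28.9 FPKM with IL-16 and 47.3 and 45.1 FPKM with PBS (adjusted p = 0.109). Overlap between groups was absent in 11 of these 17 genes (64.7%), near the 58.9% of all tested rows.

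In the cytosol, the other HSP70 and HSP110 genes had a median of -0.048 over 19 tested genes, which was 0.022 without IL-16 replicate 2 and -0.031 without PBS replicate 2. Bag3, an HSF1-responsive cochaperone gene, had 4.87 and 5.71 FPKM with IL-16, against 3.83 and 3.49 FPKM with PBS, and Stub1, a ubiquitin ligase gene of the HSP70 system, had 36.7 and 36.04 FPKM with IL-16, against 27.8 and 30.7 FPKM with PBS (adjusted p = 0.143 and 0.132 in limma). The 13 HSP90 cochaperones had a median of -0.097, which was -0.011 without IL-16 replicate 2. Stip1, which links HSP70 to HSP90, had 78.3 and 92.8 FPKM with IL-16, against 63.7 and 66.9 FPKM with PBS, whereas Fkbp5 had 13.6 and 12.4 FPKM with IL-16, against 17.3 and 16.7 FPKM with PBS (adjusted p = 0.135 and 0.119). The CCT chaperonin and prefoldin genes, which fold actin and tubulin, had a median of -0.230 (-0.127 without IL-16 replicate 2), with 3 of 14 above 0, beside 42.2% of all tested rows. At an unadjusted p under 0.05 there were 7 lower and 2 higher of the 14 genes (64.3%), beside 13.9% and 9.59% of all tested rows, among them the prefoldin subunit genes Pfdn4, with 5.51 and 4.62 FPKM with IL-16 against 9.55 and 10.5 FPKM with PBS, and Vbp1, with 29.3 and 26.2 FPKM with IL-16 against 37.5 and 38.3 FPKM with PBS (adjusted p = 0.0686 and 0.105). Pfdn4 passed when copy rows were summed before testing (log2 difference -0.87, adjusted p = 0.0371; 0.0159 to 0.267 over all alternatives).

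Other mitochondrial folding and protease genes had a median of -0.141 (-0.226 without IL-16 replicate 1), with 4 of 16 above 0, beside 42.2% of all tested rows. Atf5, which encodes a transcription factor of the mitochondrial UPR, had 14.6 and 11.5 FPKM with IL-16, against 19.9 and 19.9 FPKM with PBS (log2 difference -0.58, SE 0.124, adjusted p = 0.107 in limma). Yme1l1, an inner membrane protease gene, had 26.5 and 25.5 FPKM with IL-16, against 30.3 and 31.8 FPKM with PBS (adjusted p = 0.150). Without IL-16 replicate 1, 41 of the 132 genes passed (10 higher, 31 lower; 31.1%, against 17.4% of all tested rows), and without any other single library 0 did.

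**Figure D4:**
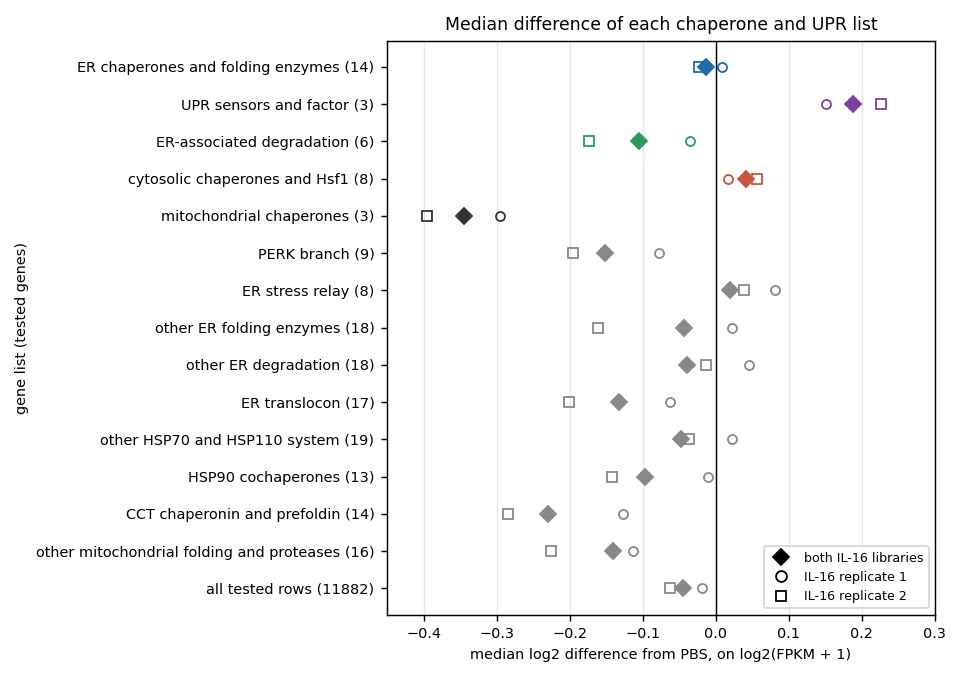
Median log2 difference from PBS on the log2(FPKM + 1) scale for the 5 classes (coloured), the 9 related lists (grey) and all tested rows, with both IL-16 libraries (diamonds), IL-16 replicate 1 (circles) and IL-16 replicate 2 (squares). The mitochondrial chaperones are lowest, at -0.345, and the UPR sensors and factor (Ern1, Atf6 and Xbp1, without the PERK gene) highest, at 0.188.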

How the data were processed

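The authors deposited 1 table of 26334 rows with a column for each library. FPKM, computed by the authors, is the unit inferred for it: the header names no unit, the values are not whole and the library totals run from 373924 to 391153. Per the submitters' processing notes, fastp, HISAT2, featureCounts and GRCm39 were used. Their versions and roles and the annotation used were not stated in the labels. Read depth is unknown, so no counting interval is given.

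Groups came from the sample titles. The model was limma (version 3.58.1; R 4.3.3) with its variance trend, fitted on log2(FPKM + 1) to the 11882 rows with at least 1 FPKM in at least 2 libraries, with group as the only term. Tests were two-sided, with Benjamini-Hochberg adjustment over all tested rows and a threshold of 0.05. This log2 scale understates changes of low genes, and folds are ratios of mean FPKM. On data simulated for this comparison over 11882 rows, 100% of 100 rows changed by a log2 fold of 1 were recovered. The noise followed the variance trend alone, without the spread of single genes, and low rows were not among those changed. Differences as small as those of the members (-0.42 to 0.34) were not simulated, so their recovery is unknown. In the real data Sec61g, at -1.01, was not called (adjusted p = 0.105 in limma). Alternatives changed the pseudocount, low-value filter, scaling, variance trend, copy rows, replicate block or the libraries used.

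The members and the 9 related lists were chosen with earlier results of these data known. The rule named members that were called, had an unadjusted p under 0.05 or groups without overlap, or were among the 12 most or 3 least abundant; per related list, called genes and the 2 tested genes with the smallest p; and Cd4, Ifng and Tbx21. Classes were described by counts and medians without a test. Promoter windows came from RefSeq (GRCm38.p6).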

Additional observations from a re-analysis of the deposited data

How the results depend on the processing

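Over 13 alternatives, 428 of the 442 values of the 34 tested genes kept their direction and their side of the threshold. In 8 cases a gene passed, all without IL-16 replicate 1. In 6 cases, over 5 genes, the sign turned: Manf (0.007) and Sel1l (0.003) under median-of-ratios scaling, and, over fits that leave out 1 library, Dnajb9 (-0.130 to 0.154), Sdf2l1 (-0.279 to 0.028), Sel1l (-0.087 to 0.001) and Hsph1 (-0.003 to 0.080). The number of these genes called was 0 in all alternatives other than the leave-one-out fits, where it ran from 0 to 8. For the related lists it was 1 with copy rows summed and 0 to 41 on leaving out 1 library. Over all rows the count was 126 with copy rows summed, 40 after rescaling to TPM, 53 with median-of-ratios scaling, 0 in limma without a trend, 0 without the low-value filter, which tests more rows, and 9 to 2065 on leaving out 1 library. The median log2 difference of the ER chaperones became 0.031 with median-of-ratios scaling and 0.013 after rescaling to TPM, and ran from -0.023 to 0.008 on leaving out 1 library. That of the cytosolic genes became 0.088 and 0.070 under the same scalings. Over all alternatives the median ran from 0.137 to 0.233 for the UPR sensors and factor and from -0.174 to -0.035 for ER-associated degradation. For the mitochondrial chaperones it ran from -0.396 to -0.295. For the related lists, median-of-ratios scaling gave a median of 0.003 for other ER folding enzymes, 0.008 for other ER degradation, -0.008 for the other HSP70 and HSP110 genes, -0.051 for HSP90 cochaperones, -0.084 for the translocon and -0.093 for other mitochondrial genes. Rescaling to TPM gave -0.016, -0.012 and -0.027 for the first 3 of these. The order of the genes by size of difference was not stable: with median-of-ratios scaling Pdia3 (0.385) exceeded Hspe1 (-0.375), and without PBS replicate 1 Dnaja1 (-0.395) was lower than Hspe1 (-0.381). The causes were not tested.

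Libraries with the same replicate number did not deviate together (r = 0.00665 across 11882 rows), so the numbers were not taken as pairs. With the replicate block 31 rows were called, and 0 of the 34 genes.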
